A study of Mus musculus with 49 samples.

Results

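In the Stat5b line, the response of splenic CD8+ T cells to 48 h of IL-2 was measured in mice whose STAT5B cannot be phosphorylated at its activating tyrosine (KI) and in their WT littermates, and the quantity described here is the difference between the 2 responses. This genotype by IL-2 interaction was taken as (KI at 48 h minus KI at 0 h) minus (WT at 48 h minus WT at 0 h), on the log2 scale, so that a value below 0 marks a gene whose level rose less, or fell more, in KI cells. The libraries were chosen by line, genotype and time alone, and 12 of the 48 RNA-seq libraries of the series entered, 3 in each of 4 groups. Both genotypes were of the C57BL/6J strain, both kept the unaltered *Stat5a* gene, and KI mice carried the STAT5B Y699F allele in both copies, made by CRISPR/Cas9 in zygotes and then backcrossed. The 0 h cells were freshly isolated by negative selection and received no IL-2, and the 48 h cells were cultured with 500 IU/ml of recombinant human IL-2. No library of cells cultured for 48 h without IL-2 was analysed here, so the effect of IL-2 and that of 48 h of culture cannot be told apart in either response. Whether each library came from 1 mouse or from a pool is not given in the sources used here, and p-values therefore measure the spread between these libraries. Of 23992 gene symbols, 14366 passed the filter on low counts and were tested.

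IL-2 binds a receptor whose beta chain (IL-2Rβ) and common γ chain activate the kinases JAK1 and JAK3, which phosphorylate STAT5A and STAT5B on a single C-terminal tyrosine. Phosphorylated STAT5 pairs into dimers that enter the nucleus and bind a palindromic DNA element, TTCNNNGAA. In CD8+ T cells the pathway is known for inducing its own receptor and inhibitors, driving the cell cycle and biosynthesis, and turning on cytotoxic molecules, while genes of resting T cells are turned down.

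The change that defines KI cells lies at chr11:100784270-100784311 (GRCm38, minus strand), across the start of a coding exon of *Stat5b*. The RefSeq sequence and the study's repair oligo are shown over the same 42 bases because they carry the only difference between the genotypes that was designed, and capitals mark the 4 bases that the oligo changes.
WT: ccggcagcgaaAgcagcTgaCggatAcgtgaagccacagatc
KI: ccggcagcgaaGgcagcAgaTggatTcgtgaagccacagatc
Guide and PAM: ccggcagcgaaagcagctgaCGG
Counted from 1 at the 5′ end of this window the changes are A12G, T18A, C21T and A26T, and A26T turns tac, a tyrosine codon, into ttc, a phenylalanine codon. The guide covers chr11:100784289-100784311 with its PAM in capitals, and C21T falls on the first base of that PAM. These bases are too few to be read from gene counts, so the counts do not check the genotype labels.

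The transcript of *Stat5b* itself was present in all 12 libraries, at 28.3, 29.7 and 29.5 RPKM in WT at 0 h, 20.9, 21.1 and 21.8 in WT at 48 h, 26.8, 27.2 and 27.0 in KI at 0 h and 33.2, 31.5 and 28.6 in KI at 48 h. RPKM is the number of reads scaled to transcript length and to the mapped reads of the library. WT libraries at 48 h lay below all others, and KI libraries at 48 h overlapped those of WT at 0 h. The response was -0.63 ± 0.05 in WT and 0.04 ± 0.05 in KI, with an interaction of 0.67 ± 0.07 (log2 ± SE, adjusted p = 6.95e-07), under the fold threshold used here. *Stat5a* was at 21.5 and 17.8 RPKM in WT at 0 and 48 h and at 21.8 and 20.5 in KI, an interaction of 0.19 ± 0.08.

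Each of the 12 libraries held between 34914679 and 52148513 reads on the longest transcript of each gene. Those reads were 83.2 to 84.4% of all mapped reads in WT at 48 h, 72.6 to 78.5% in KI at 48 h and 68.7 to 74.1% at 0 h, so this share moved with the groups, and its part in the results was not tested. The 4 groups stood apart on the first 2 principal components, which held 71.5% and 13.6% of the variance, and KI cells at 48 h lay between WT cells at 48 h and the 0 h cells on the first. No library stood apart from its group.

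Other cell types left a trace in the 0 h cells, and more of it in KI. The summed RPKM of 15 B cell markers, led by *Cd74* (the MHC class II invariant chain), was 685, 742 and 949.8 in WT at 0 h, 58.5, 49.9 and 66.8 in WT at 48 h, 2192, 2312 and 1884 in KI at 0 h and 507, 476 and 474 in KI at 48 h. For 19 markers of macrophages and monocytes, led by *Lyz2* (lysozyme), the sum was 52.9, 55.7 and 66.6 in WT at 0 h, 4.25, 4.05 and 5.91 in WT at 48 h, 259, 211 and 184 in KI at 0 h and 129.5, 82.4 and 107.3 in KI at 48 h. Both sums were higher in every KI library than in every WT library of the same time, 2.69-fold at 0 h and 8.32-fold at 48 h for B cell markers and 3.73-fold and 22.5-fold for macrophage markers. Erythroid and platelet markers, led by *Hbb-bs*, differed 9.05-fold at 0 h and 25.8-fold at 48 h (means of 53.1 ± 30.0 in WT and 480.3 ± 219 in KI at 0 h, SD, n = 3). The summed neutrophil markers, led by *S100a9*, were 2.94-fold higher in KI at 0 h and 2.12-fold at 48 h, while the median marker of that list was 1.58 (log2) higher at 0 h and 2.11 at 48 h, and *S100a9* itself 4.07 at 48 h. The sum for CD4 and regulatory T cells, led by *Ctla4*, was 1.64-fold and 1.69-fold higher and the median marker 0.59 and 0.65, with *Cd4* at 3.50 and *Foxp3* at 3.05 at 48 h. The sum of the dendritic cell markers was 1.59-fold and 1.05-fold higher but was led by *Bst2*, which interferon also induces, whereas the median marker of that list was 0.94 (log2) higher in KI at 0 h and 2.38 at 48 h. The sum of the NK cell markers was 1.47-fold higher at 0 h and at 0.95 of the WT level at 48 h and was led by *Tyrobp*, which myeloid cells also express, whereas the median marker was at -0.35 and -0.05 and *Klrb1c* at -2.01 and -1.38. Other NK cell markers were higher in KI at 48 h, with *Ncr1* at 0.24 and 2.06 and *Klra8* at -0.11 and 1.05 at the 2 times. The 7 measured CD8 T cell markers (*Cd8a*, *Cd8b1*, *Cd3e*, *Cd3d*, *Cd3g*, *Cd2* and *Thy1*) summed to 1770.0 ± 131.5 in WT and 1382 ± 51.3 in KI at 0 h and to 1926 ± 13.4 and 2261 ± 115.3 at 48 h. These markers of the labelled cell type were present in every library. The 12 memory-phenotype markers, led by *Ccl5*, summed to 0.665 of the WT level in KI at 0 h and 0.667 at 48 h. Members of this list differed in direction, with *Klrc1* lower in KI at 48 h (-1.66, log2), *Ccl5* higher (1.17) and *Cxcr3* at 0.04. None of the 9 marker lists had a gene at 3 reads or fewer in every library. In bulk RNA, fewer cells of a type and less RNA per cell cannot be told apart.

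**Figure D1:**
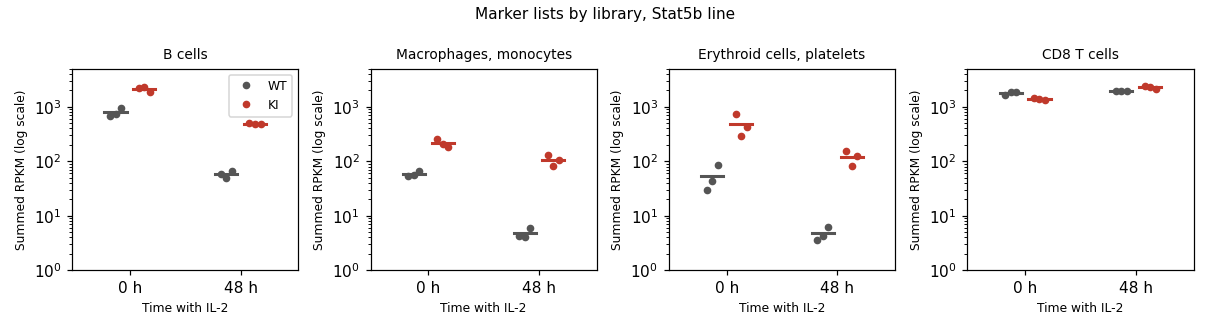
Summed RPKM (log axis) of the B cell, macrophage, erythroid and CD8 T cell marker lists in each of the 12 libraries, 1 point per library and a bar at the mean of each group. KI points lie above WT points at both times for the first 3 lists, while the CD8 T cell sums stay between 1324 and 2367 in all libraries.

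A gene was called when its change was at least 2-fold and its adjusted p (Benjamini-Hochberg, over all genes tested) did not exceed 0.05. In WT cells 2250 genes rose by 48 h (15.7% of genes tested) and 3143 fell (21.9%). In KI cells 917 rose (6.38%) and 1950 fell (13.6%). By limma on log2(RPKM + 1) the counts were 1999 and 811 in WT and 565 and 569 in KI, so that fewer rather than more genes fell than rose in WT. The interaction itself was above 0 for 1966 genes (13.7%) and below 0 for 1699 (11.8%). Which of the 2 directions was the more frequent depended on the processing, with 540 above and 1136 below by limma on log2(RPKM + 1), 680 and 1125 among genes with a mean of at least 5 RPKM in a group and 1170 and 1634 when all 48 libraries shared 1 fit.

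The median IL-2-induced gene of WT cells rose by 1.54 (log2) in WT and by 0.48 in KI, and the median repressed gene fell by 1.95 in WT and by 0.98 in KI, while the median of all genes tested moved by -0.08 and 0.02. Each of these genes was put in 1 of 5 classes. A response was weakened when the interaction was called against its direction, reversed when the KI response was in addition called in the opposite direction, and strengthened when the interaction was called in its direction. It was kept when the interaction was not called, its 95% interval lay within a 2-fold change and the KI response was called the same way, and the rest were unresolved. Of the 2250 induced genes 1280 (56.9%) were weakened, 42 (1.87%) reversed, 13 (0.578%) strengthened, 162 (7.2%) kept and 753 (33.5%) unresolved. Of the 3143 repressed genes 1453 (46.2%) were weakened, 27 (0.859%) reversed, 35 (1.11%) strengthened, 286 (9.1%) kept and 1342 (42.7%) unresolved. The reversed genes, 42 and 27, were 3 and 1 by limma on log2(RPKM + 1), 6 and 4 among genes reaching 5 RPKM and 28 and 13 when all 48 libraries shared 1 fit, and the strengthened, 13 and 35, were 2 and 14 by limma and 8 and 12 among genes reaching 5 RPKM. The count of weakened repressed genes was 252 by limma on log2(RPKM + 1), 826 when all 48 libraries shared 1 fit and 467 among genes reaching 5 RPKM, and 201 of the 1453 had a group with at most 3 reads in each library.

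**Figure D2:**
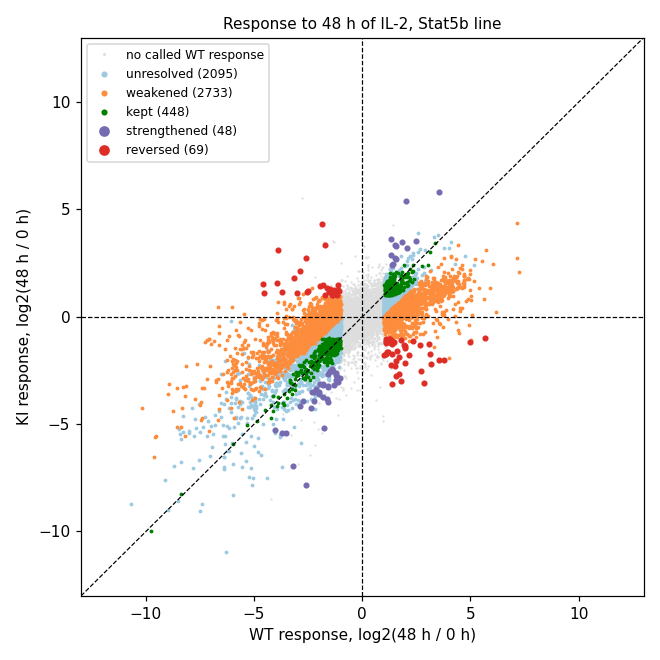
Response to 48 h of IL-2 (log2, 48 h against 0 h) of each gene tested in WT cells (x axis) and in KI cells (y axis), coloured by class, with dashed lines at equal responses and at 0. Weakened genes, 1280 induced and 1453 repressed, mostly lie between the dashed diagonal and the horizontal axis, and the few reversed genes lie in the opposite quadrants.

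The WT libraries that picked out the induced and repressed genes are also part of the interaction, so the classes were counted again with genes picked by the WT libraries of the Stat5a line, which share no library with it. Of 2158 genes induced there, 1208 (56.0%) had an interaction called below 0 in the Stat5b line and 24 above 0. Of 3014 repressed there, 1291 (42.8%) had an interaction called above 0 and 53 below 0. The medians of these sets were 1.55 in WT and 0.55 in KI for induced genes and -1.89 and -1.01 for repressed genes.

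The genotypes were also compared at each time. KI cells differed from WT cells at 0 h in 1349 genes that were higher (9.39%) and 100 that were lower (0.696%), and at 48 h in 2463 that were higher (17.1%) and 1512 that were lower (10.5%). These counts depended on the processing. At 0 h they were 267 and 28 by limma on log2(RPKM + 1) and 646 and 71 with all 48 libraries, and at 48 h 583 and 836 by limma, where the lower genes were the more frequent, and 3073 and 954 with library totals in place of TMM. Of the 1280 weakened induced genes, 943 were lower in KI at 48 h with no call at 0 h, 9.22% were higher in KI at 0 h and lower at 48 h, 36 were only higher at 0 h and 183 were called at neither time. Of the 1453 weakened repressed genes, 887 were higher in KI at 48 h with no call at 0 h, 379 were higher in KI at both times, 19 were only lower at 0 h, 1 was lower at 0 h and higher at 48 h and 167 were called at neither time. B cell and macrophage markers such as *Cd79a* and *Csf1r* were among those higher in KI at both times.

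The receptor and its direct feedback genes were the closest readouts of the pathway. *Il2ra* (the α chain, which makes the receptor high-affinity) was at 2.49, 1.76 and 2.31 RPKM in WT at 0 h, 63.0, 59.8 and 55.3 in WT at 48 h, 4.08, 2.85 and 3.99 in KI at 0 h and 9.21, 11.1 and 11.9 in KI at 48 h. All 3 KI libraries at 48 h lay above all 0 h libraries and far below the WT libraries at 48 h. *Il2ra* rose by 4.59 ± 0.15 in WT and by 1.40 ± 0.15 in KI, an interaction of -3.19 ± 0.21 (adjusted p = 1.56e-08). *Il2rb* (the β chain) was at 156, 169 and 165 RPKM in WT and 91.5, 99.6 and 86.2 in KI at 0 h and at 397, 396 and 387 and 143.9, 161 and 119.5 at 48 h, with an interaction of -0.65 ± 0.11 that was under the fold threshold. The common γ chain *Il2rg* and the kinase *Jak3* had interactions of 0.24 ± 0.08 and 0.04 ± 0.09, and *Jak1* one of 0.95 ± 0.08. Of the 13 receptor and JAK-STAT genes 1, *Il2ra*, was called below 0 and 1, *Il7r*, above 0. Over all genes 11.8% were called below 0 and 13.7% above 0, and these shares stand beside the list counts at 48 h that follow.

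*Cish*, which encodes a feedback inhibitor of STAT5 signalling, has a promoter with a pair of STAT elements next to its start site, and the promoter is shown because the gene is a standard readout of STAT5. The RefSeq promoter (GRCm38.p6, plus strand, from 250 bases before the start site to 50 after it) is at chr9:107296409-107296708, and capitals mark each TTCNNNGAA, a motif that reads the same on both strands.
Cish promoter: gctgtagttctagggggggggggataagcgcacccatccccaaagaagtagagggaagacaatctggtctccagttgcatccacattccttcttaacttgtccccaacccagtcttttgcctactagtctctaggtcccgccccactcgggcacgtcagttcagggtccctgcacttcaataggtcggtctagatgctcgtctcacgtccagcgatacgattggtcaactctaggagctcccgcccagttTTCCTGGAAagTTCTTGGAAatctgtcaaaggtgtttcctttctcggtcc
The elements begin at bases 1 and 12 of the transcript. *Cish* was at 4.21, 3.67 and 4.60 RPKM in WT at 0 h, 57.3, 55.8 and 59.4 in WT at 48 h, 2.89, 4.18 and 2.63 in KI at 0 h and 10.3, 12.3 and 8.70 in KI at 48 h. WT and KI libraries overlapped at 0 h and were far apart at 48 h. The rise was 3.61 ± 0.13 in WT and 1.52 ± 0.14 in KI, an interaction of -2.09 ± 0.19 (adjusted p = 2.45e-07). *Socs2*, another inhibitor of cytokine receptors, had a response of 3.26 ± 0.12 in WT and 0.68 ± 0.12 in KI, going from 1.31, 1.47 and 1.43 to 15.2, 16.3 and 13.9 RPKM and from 2.26, 2.82 and 2.38 to 3.66, 5.04 and 4.67. *Socs1* rose in both genotypes (2.87 and 2.03) and its interaction of -0.84 ± 0.23 was not called. Among the 15 SOCS and other feedback genes 3 were called below 0 and none above 0, against 11.8% and 13.7% of all genes. Those below 0 included *Dusp4*, a MAP kinase phosphatase that had responses of -2.13 ± 0.13 in WT and -3.36 ± 0.14 in KI.

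Among genes with a mean of at least 5 RPKM in a group and more than 3 reads in a library of each group, the 5 weakened induced genes with the largest interaction were *Lif*, *Hemgn*, *Asns*, *D630039A03Rik* and *Zbtb32*. *Lif*, a cytokine of the IL-6 family, was at 0.154, 0.115 and 0.175 RPKM in WT at 0 h, 24.2, 23.3 and 29.4 in WT at 48 h, 0.263, 0.525 and 0.245 in KI at 0 h and 1.42, 2.07 and 1.39 in KI at 48 h. Its libraries did not overlap between genotypes at 48 h, and its interaction was -5.18 ± 0.37 (adjusted p = 1.80e-08). *Asns*, the enzyme that makes asparagine, was at 0.366, 0.600 and 0.401 RPKM in WT at 0 h, 16.0, 23.5 and 12.4 in WT at 48 h, 1.24, 1.19 and 1.20 in KI at 0 h and 1.67, 1.28 and 1.38 in KI at 48 h. It was higher in all KI libraries than in all WT libraries at 0 h and had a KI response of 0.08 ± 0.23 that was not called, with an interaction of -4.99 ± 0.34 (adjusted p = 1.34e-08). *Zbtb32*, a zinc finger repressor induced in activated lymphocytes, went from 1.65, 2.07 and 1.25 to 39.3, 40.2 and 33.4 RPKM in WT and from 4.15, 4.32 and 4.18 to 3.72, 4.18 and 4.17 in KI. The KI libraries at the 2 times overlapped, and the interaction of *Zbtb32* was -4.56 ± 0.19 (adjusted p = 5.39e-10). *Hemgn* had an interaction of -5.08 ± 0.40 and was also higher in KI at 0 h (2.57, 1.01 and 1.77 against 0.242, 0.180 and 0.263 RPKM). *D630039A03Rik* had one of -4.80 ± 0.73.

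*Gzmb*, which encodes the serine protease granzyme B, was at 4.86, 8.60 and 11.3 RPKM in WT at 0 h, 1341, 1426 and 1221 in WT at 48 h, 10.4, 8.80 and 9.45 in KI at 0 h and 69.3, 68.6 and 75.5 in KI at 48 h. KI libraries at 48 h were well above both 0 h groups but far under the WT libraries at 48 h. The response was 7.16 ± 0.18 in WT and 2.73 ± 0.18 in KI, an interaction of -4.43 ± 0.26 (adjusted p = 5.65e-09). *Prf1* (perforin) and *Gzma* had interactions of 0.32 ± 0.11 and 0.19 ± 0.48 that were not called, and *Nkg7* one of -0.07 ± 0.13. Of 12 effector molecules tested, 4 were called below 0 (*Gzmb*, *Gzmc*, *Serpinb9* and *Serpinb6b*) and 1 above 0 (*Gzmk*). With all 48 libraries in 1 fit, with or without the third KI library of the Stat5a line at 4 h, *Gzmk* lost its call (1.54 to 1.58). *Ifng* went from 8.82, 12.002 and 11.2 to 62.1, 61.5 and 53.9 RPKM in WT and from 8.58, 10.9 and 7.78 to 8.68, 7.58 and 5.52 in KI, an interaction of -2.79 ± 0.20. In the cytokine list 7 of 16 genes were called below 0 and 2 above 0. *Lta* (-3.74 ± 0.12), *Tnf* (-2.45 ± 0.16), *Ccl3* (-2.87 ± 0.21) and *Osm* (-2.26 ± 0.19) were weakened, and the chemokine gene *Ccl5*, with responses of -2.61 ± 0.16 in WT and -0.69 ± 0.16 in KI, was a weakened repressed gene. *Xcl1* and *Csf2* rose in both genotypes and were unresolved.

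**Figure D3:**
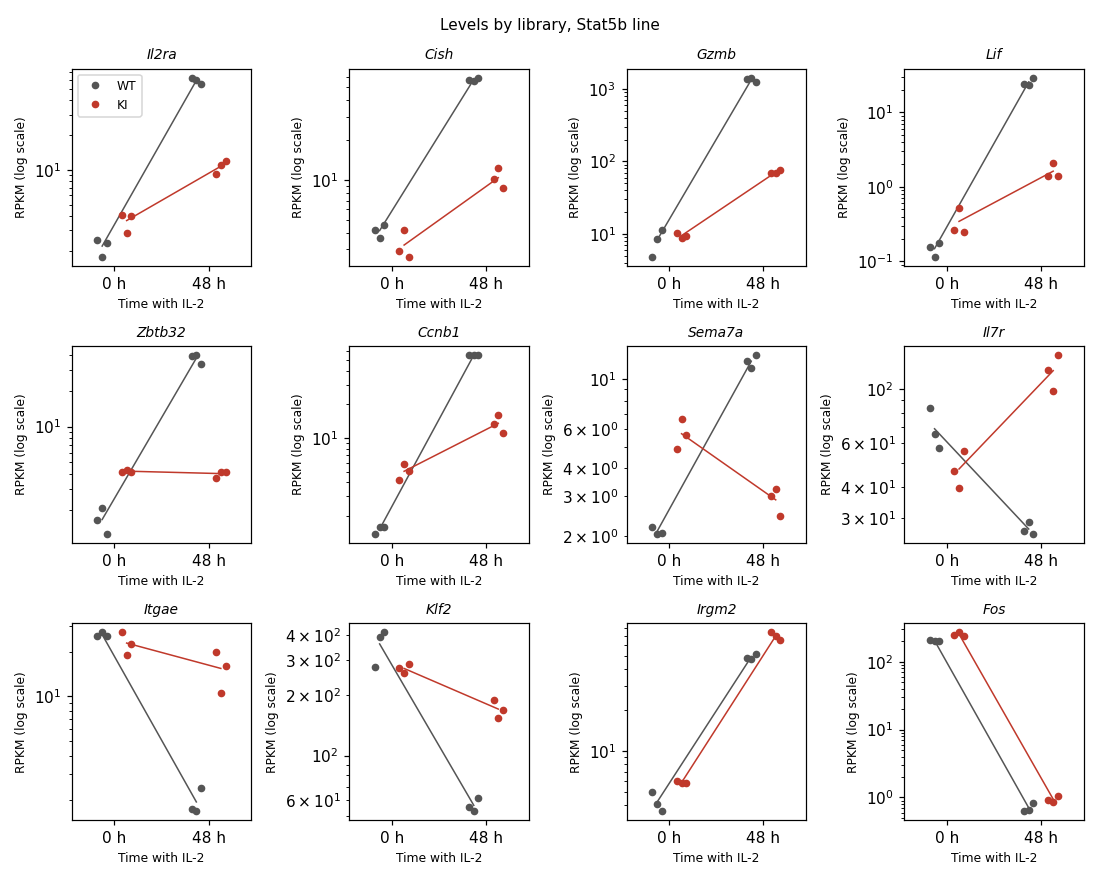
RPKM (log axis) of 12 genes in each of the 12 libraries, 1 point per library, with WT in grey and KI in red at 0 h and 48 h and lines joining group means. For *Il2ra*, *Cish*, *Gzmb*, *Lif*, *Zbtb32* and *Ccnb1* the KI points at 48 h fall below the WT points. For *Sema7a* and *Il7r*, of the reversed class, the WT and KI responses were called in opposite directions. Lines cross in these panels and in several others, such as *Ccnb1* and *Klf2*. For *Itgae* and *Klf2* the KI points at 48 h lie above the WT points, and for *Irgm2* and *Fos* the lines run nearly parallel.

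*Myc*, the growth-promoting transcription factor, was at 21.7, 19.1 and 21.2 RPKM in WT at 0 h, 93.0, 90.1 and 94.8 in WT at 48 h, 31.2, 35.7 and 25.2 in KI at 0 h and 45.4, 42.04 and 40.2 in KI at 48 h. WT libraries at 48 h were all above the KI libraries at 48 h, whereas 0 h libraries of KI were above those of WT. The response of *Myc* was 1.99 ± 0.09 in WT and 0.31 ± 0.09 in KI, an interaction of -1.68 ± 0.12 (adjusted p = 2.92e-08). Of the 12 genes of its network 3 were called below 0 (*Myc*, *Mycn* and *Mxd3*) and 3 above 0, all of them repressed in WT (*Mycl*, *Mxd4* and *Mxi1*). By limma on log2(RPKM + 1) *Mycl* (0.06) and *Mxi1* (0.85) were not called. *Mxd4*, a MYC antagonist, went from 27.1 to 3.76 RPKM in WT and from 28.9 to 22.6 in KI, an interaction of 2.50 ± 0.10.

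Cell cycle genes rose in WT and fewer of them, and by less, in KI. Of the 10 E2F and DP factors, which switch on S phase genes, 6 were called below 0 and none above 0, with median responses of 2.70 in WT and 0.71 in KI. *E2f1* had responses of 2.93 ± 0.14 in WT and 0.57 ± 0.13 in KI. Among 17 cyclins and CDKs 11 were called below 0 and 1, *Ccnd1*, above 0. By limma on log2(RPKM + 1) *Ccnd1* (0.70) was not called. *Ccnb1* (cyclin B1) was at 1.38, 1.60 and 1.61 RPKM in WT at 0 h, 55.4, 54.6 and 54.7 in WT at 48 h, 4.23, 5.84 and 5.03 in KI at 0 h and 13.4, 16.1 and 11.04 in KI at 48 h, with KI above WT in all libraries at 0 h and below WT in all libraries at 48 h. Its interaction was -3.73 ± 0.17 (adjusted p = 1.03e-09). *Cdk6* went from 4.996, 6.14 and 5.39 to 38.4, 35.4 and 37.0 RPKM in WT and from 5.20, 5.54 and 5.60 to 6.70, 7.15 and 6.47 in KI (-2.42 ± 0.10), while *Cdk4* was weakened by less (-1.20 ± 0.12). *Ccnd2* was kept, with responses of 1.06 ± 0.07 and 1.24 ± 0.07. *Ccnd1* had responses of -4.50 ± 0.19 in WT and -1.998 ± 0.13 in KI, and macrophages and other non-T cells are known to express it. In the list of CDK inhibitors and pocket proteins 3 of 10 were below 0 (*Cdkn1a*, *Cdkn2a* and *Cdkn2c*) and 1 above 0 (*Cdkn1b*, which encodes p27, with responses of -1.38 ± 0.11 in WT and 0.01 ± 0.10 in KI).

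Of 35 genes of replication origins and forks 28 were called below 0, as were 38 of 43 S phase genes and 47 of 54 G2/M genes of a published human cell cycle signature matched by symbol, and none of these was called above 0. Of the G2/M genes 49 rose in WT and 33 in KI, and of the S phase genes 41 and 17. The median responses were 2.45 in WT and 0.84 in KI for S phase genes and 3.66 in WT and 1.13 in KI for G2/M genes. *Mcm10* rose by 4.91 ± 0.15 and 1.80 ± 0.14, and *Mki67*, a marker of cycling cells, by 3.80 ± 0.10 and 1.03 ± 0.10. At 0 h the median G2/M gene was 0.81 (log2) higher in KI than in WT and the median S phase gene 0.34 higher.

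Many biosynthetic and metabolic genes rose in WT and few in KI. Over all genes 15.7% rose in WT and 6.38% in KI. All 10 serine, glycine and one-carbon genes rose in WT, none rose in KI, and 9 were called below 0, with median responses of 2.29 in WT and 0.43 in KI. *Shmt1* had an interaction of -2.68 ± 0.16 and *Phgdh*, which opens serine synthesis, of -1.85 ± 0.11. For nucleotide synthesis 15 of 22 were below 0 (medians of 1.76 in WT and 0.41 in KI), for glycolysis 9 of 14 (1.55 in WT and 0.36 in KI), for sterol and fatty acid synthesis 16 of 27 (1.33 in WT and 0.11 in KI), for ribosome biogenesis 14 of 25 (1.14 in WT and 0.12 in KI), for aminoacyl-tRNA synthetases 14 of 20 (1.41 in WT and 0.18 in KI), for chaperones 14 of 21 (1.06 in WT and -0.12 in KI) and for the proteasome 21 of 31 (1.23 in WT and 0.16 in KI). None of these 8 lists had a gene called above 0. In KI cells 4 nucleotide synthesis genes and 1 sterol synthesis gene rose, and no gene of the other 6 lists. *Ldha*, lactate dehydrogenase, was at 149.1 and 624 RPKM in WT and 164 and 214 in KI (-1.67 ± 0.10). *Scd2*, a fatty acid desaturase, had responses of 2.23 ± 0.12 in WT and -0.90 ± 0.12 in KI. Among 15 transporters 7 were below 0 and none above 0. *Slc7a5*, the large neutral amino acid carrier, was at 94.7, 99.6 and 90.002 RPKM in WT at 48 h and 16.3, 16.8 and 13.8 in KI at 48 h from about the same level at 0 h (19.2 and 19.4), an interaction of -2.61 ± 0.12 (adjusted p = 1.41e-09). The transferrin receptor *Tfrc* had an interaction of -2.25 ± 0.20, and the glucose carriers *Slc2a1* and *Slc2a3* were not called.

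**Figure D4:**
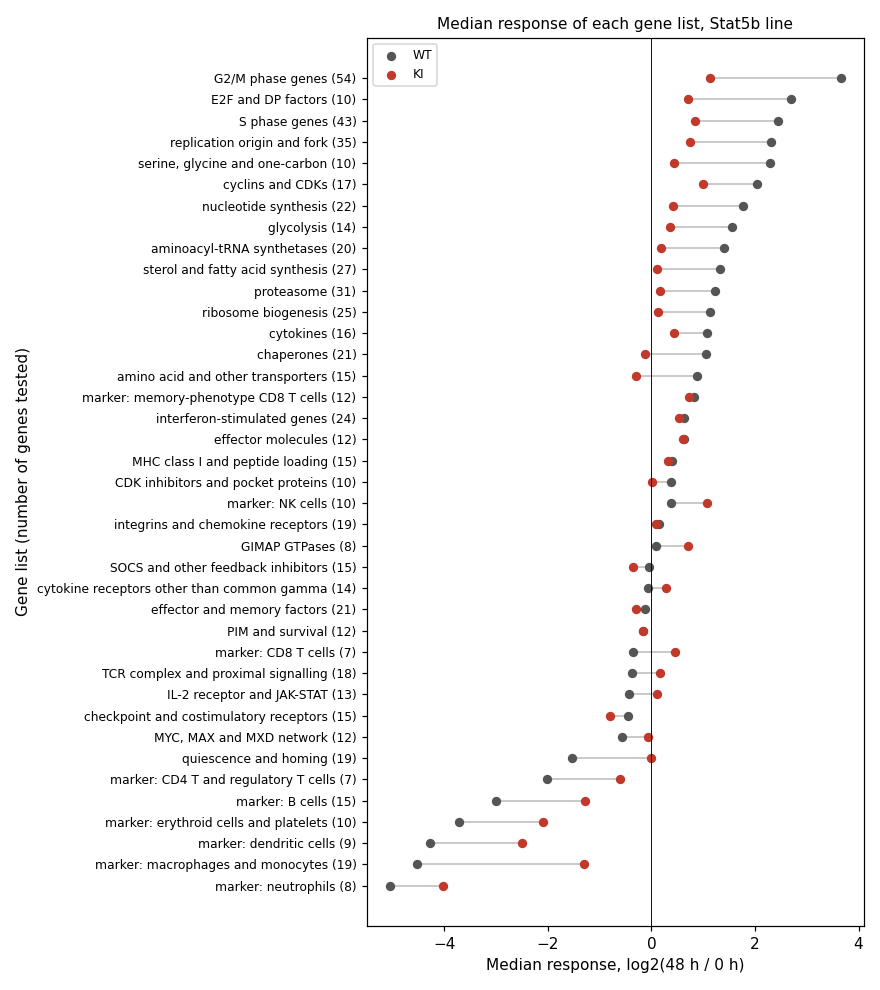
Median log2 response to 48 h of IL-2 of each gene list in WT (grey) and KI (red), ordered by the WT median, with the number of tested genes beside each name. KI medians of the cell cycle and biosynthesis lists at the top lie to the left of the WT medians, and those of the resting-cell and marker lists at the bottom lie to the right.

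*Mt2*, a metallothionein that binds zinc and copper, was at 0.552, 0.747 and 0.398 RPKM in WT at 0 h, 6.49, 6.32 and 4.67 in WT at 48 h, 4.33, 4.82 and 4.07 in KI at 0 h and 1.24, 0.816 and 1.20 in KI at 48 h. KI libraries were above all WT libraries at 0 h and below all WT libraries at 48 h, with responses of 3.18 ± 0.25 in WT and -2.18 ± 0.23 in KI (interaction -5.37 ± 0.34, adjusted p = 6.93e-09). *Mt1*, its paralogue, reversed likewise (1.96 ± 0.20 and -1.36 ± 0.20). *Sema7a*, a membrane semaphorin, was at 2.19, 2.04 and 2.05 RPKM in WT at 0 h, 12.03, 11.2 and 12.8 in WT at 48 h, 4.85, 6.63 and 5.64 in KI at 0 h and 3.0001, 3.22 and 2.46 in KI at 48 h, again with KI above WT at 0 h and below WT at 48 h, and its interaction was -3.49 ± 0.15 (adjusted p = 6.60e-10). *Hk2*, the inducible hexokinase, went from 3.09, 2.38 and 3.10 to 10.5, 9.94 and 9.23 RPKM in WT and from 4.56, 5.94 and 4.12 to 1.81, 1.77 and 1.79 in KI. The 42 reversed induced genes had a median that was 1.41 (log2) higher in KI than in WT at 0 h.

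*Gpnmb*, a glycoprotein known from macrophages, rose to 0.370, 0.262 and 0.528 RPKM in WT and 10.4, 6.07 and 8.31 in KI from at most 0.190 RPKM at 0 h (interaction 3.38 ± 0.46), beside macrophage markers that were higher in KI at both times and whose part in it was not tested. *Drc1*, a dynein regulatory gene, was at 0.821, 1.02 and 1.75 RPKM in WT and 0.0483, 0.159 and 0.0782 in KI at 0 h and at 15.1, 14.2 and 18.1 and 5.09, 8.46 and 4.71 at 48 h, so its larger fold in KI (5.82 ± 0.52 against 3.55 ± 0.25) started from a lower level and ended at a lower one, and by limma on log2(RPKM + 1) its interaction was -0.29. The chemokine receptor *Cxcr6* rose to 22.6, 20.7 and 24.3 RPKM in WT and 52.3, 51.6 and 46.3 in KI (1.68 ± 0.10, adjusted p = 7.04e-09).

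*Irgm2* and *Igtp*, immunity-related GTPases, and *Mis12*, a kinetochore gene, were the kept induced genes with the largest WT response within the same limits of RPKM and reads. *Irgm2* was at 4.96, 4.02 and 3.58 RPKM in WT at 0 h, 48.4, 47.4 and 51.7 in WT at 48 h, 5.96, 5.74 and 5.80 in KI at 0 h and 75.1, 69.6 and 65.8 in KI at 48 h, with an interaction of 0.05 ± 0.13 and a 95% interval of -0.23 to 0.32. The libraries of the 2 genotypes at 48 h did not overlap, KI being the higher. *Igtp* rose from 32.3, 27.8 and 23.8 to 256, 248 and 277 RPKM in WT and from 43.5, 40.1 and 46.7 to 275, 283 and 234 in KI, and its interval was -0.92 to -0.29. *Mis12* rose by 2.38 ± 0.07 and 1.79 ± 0.07. Of the 24 interferon-stimulated genes 4 were called below 0 (*Isg15*, *Oasl2*, *Oas2* and *Ifi44*) and none above 0, against 11.8% and 13.7% of all genes. With all 48 libraries in 1 fit, with or without the third KI library of the Stat5a line at 4 h, *Oas2* and *Ifi44* lost the call. *Oas2* lost it by limma as well. The medians of the list were 0.63 in WT and 0.53 in KI. Of 15 genes of MHC class I and peptide loading 2 were below 0, *Calr* and *Pdia3*, and none above 0, against 11.8% and 13.7% of all genes. The value of *Calr* lay at the threshold, and its call was lost in 8 alternatives, 6 of them with 1 library left out (nearest to 0 at -0.91). The survival genes *Bcl2* (1.17 ± 0.11 and 1.58 ± 0.11) and *Pim2* (1.37 ± 0.06 and 1.58 ± 0.06) were kept, although the *Bcl2* libraries of KI lay below those of WT at both times, at 11.9, 15.6 and 11.7 RPKM in KI against 20.8, 25.7 and 31.0 in WT at 0 h and 42.6, 46.9 and 42.1 in KI against 62.6, 67.6 and 66.9 in WT at 48 h. In the list of PIM and survival genes 2 of 12 were below 0 (*Bcl2l1*, at -1.49 ± 0.15, and *Bak1*) and 2 above 0, the proapoptotic *Bbc3* and *Bmf*. The shares of all genes were 11.8% below 0 and 13.7% above 0. By limma on log2(RPKM + 1) *Bmf* (0.90) was not called.

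The motif TTCNNNGAA was found in 8.3% of all 32851 RefSeq promoters of 300 bases and in 8.49% of the 10473 tested genes that matched a promoter by symbol. It was in 72 of 900 weakened induced genes (8.0%), in 24 kept induced genes (19.7%), in 74 of 1026 weakened repressed genes (7.21%) and in 14 of 208 kept repressed genes (6.73%), as well as in 4 of 28 reversed induced genes (14.3%) and 3 of 20 reversed repressed genes (15%). *Igtp*, of the kept class, and *Il7r*, of the reversed class below, each held 1, and their promoters are shown beside that of *Cish* for this reason, at chr11:58199306-58199605 (plus strand) and chr15:9529827-9530126 (minus strand), both GRCm38.p6.
Igtp promoter: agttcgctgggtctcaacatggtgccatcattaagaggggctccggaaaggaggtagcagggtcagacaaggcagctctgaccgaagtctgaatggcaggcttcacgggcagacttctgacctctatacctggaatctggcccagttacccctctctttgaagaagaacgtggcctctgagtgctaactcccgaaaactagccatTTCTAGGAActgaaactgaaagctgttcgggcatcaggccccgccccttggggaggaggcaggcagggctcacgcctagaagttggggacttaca
Il7r promoter: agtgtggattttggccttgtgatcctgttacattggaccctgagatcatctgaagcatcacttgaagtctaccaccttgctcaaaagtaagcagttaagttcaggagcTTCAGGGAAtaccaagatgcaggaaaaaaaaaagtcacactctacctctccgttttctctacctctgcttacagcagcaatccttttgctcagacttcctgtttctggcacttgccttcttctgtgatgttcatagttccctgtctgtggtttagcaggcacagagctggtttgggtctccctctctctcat
The motif starts 45 bases before the start site of *Igtp* and farther upstream in *Il7r*. Of other genes looked up, *Bcl6* held up to 3 in this window, *Lta* 2, *Gzmb*, *Tnfrsf9*, *Irgm2* and *Socs3* 1 each, and *Lif*, *Il2ra* and *Zbtb32* none, and a match is no evidence of binding.

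Most genes of the quiescence and homing list, which mark resting T cells, fell in WT and fewer of them in KI. Of 19 genes of quiescence and homing 14 fell in WT and 4 in KI, against 21.9% and 13.6% of all genes. Of the same genes, 13 were called above 0 and none below 0, and the medians were -1.53 in WT and -0.01 in KI. *Klf2*, a factor that keeps T cells quiescent, was at 278, 391 and 415 RPKM in WT at 0 h, 55.2, 52.7 and 61.5 in WT at 48 h, 273, 258 and 286 in KI at 0 h and 189.9, 153.3 and 169 in KI at 48 h. Every KI library at 48 h was above every WT library at 48 h, while at 0 h the groups overlapped. Its interaction was 2.01 ± 0.16 (adjusted p = 7.67e-08). *S1pr1*, the receptor that lets T cells leave lymphoid organs, went from 142.4, 142.6 and 153.1 to 37.9, 39.8 and 42.3 RPKM in WT and was at 114.2, 84.7 and 139.5 and 128.9, 108.8 and 132.8 in KI (2.004 ± 0.20). *Klf6* (-2.63 and -2.51) was kept, and *Foxp1* and *Ccr7* had interactions of 0.69 and 0.89 that were not called. In the list of effector and memory factors 6 of 21 were called above 0 and 6 below 0. *Tcf7*, which encodes the memory factor TCF1, was at 145.8, 140.96 and 145.5 RPKM in WT and 381, 354 and 343 in KI at 48 h (1.69 ± 0.07, adjusted p = 5.39e-10), and *Lef1*, *Foxo1*, *Bach2*, *Tox* and *Bcl6* were also above 0. *Eomes* was weakened (1.25 ± 0.18 and -0.01 ± 0.18) and *Tbx21* kept (1.28 ± 0.10 and 1.001 ± 0.11).

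*Il7r*, the receptor chain for the survival cytokine IL-7, was the most abundant of the reversed repressed genes named. It was at 83.5, 65.5 and 57.5 RPKM in WT at 0 h, 26.5, 28.8 and 25.8 in WT at 48 h, 46.2, 39.7 and 55.9 in KI at 0 h and 119.6, 98.1 and 137.3 in KI at 48 h, with KI below WT at 0 h and above WT at 48 h in all libraries. The response was -1.53 ± 0.16 in WT and 1.16 ± 0.16 in KI, an interaction of 2.68 ± 0.23 (adjusted p = 1.24e-07). *Fam211b* reversed as well (-1.38 ± 0.16 and 1.02 ± 0.16), from 4.18, 5.06 and 4.76 to 1.83, 2.03 and 2.23 RPKM in WT and from 2.58, 1.72 and 2.37 to 5.78, 3.90 and 5.56 in KI. Among 14 other cytokine receptors 3 were above 0, all weakened repressed (*Il6ra*, *Il6st* and *Tgfbr2*), and 3 below 0, all weakened induced (*Il12rb1*, *Il12rb2* and *Il1rl1*). The shares of all genes were 13.7% above 0 and 11.8% below 0. *Il1rl1* (-1.03 ± 0.33, adjusted p = 0.0120) lost its call in 8 alternatives, 4 of them with 1 library left out (-1.10 to -0.35). *Il12rb2*, the signalling chain for IL-12, had an interaction of -2.41 ± 0.13 and *Il6ra* one of 1.84 ± 0.10.

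*Itgae* encodes the αE integrin CD103, by which T cells hold to epithelium. It was at 25.6, 27.2 and 25.5 RPKM in WT at 0 h, 1.75, 1.68 and 2.41 in WT at 48 h, 27.0, 19.1 and 22.6 in KI at 0 h and 19.8, 10.5 and 16.0 in KI at 48 h. WT libraries at 48 h stood apart from the other 3 groups, and the interaction was 3.19 ± 0.26 (adjusted p = 1.04e-07). Of 19 integrins and chemokine receptors 8 were above 0, among them *Itga4* (1.62 ± 0.16), *Ccr9* (1.80 ± 0.12) and *Cxcr4* (1.14 ± 0.08), and 2 below 0, among them *Ccr4*. By limma on log2(RPKM + 1) and with all 48 libraries in 1 fit *Ccr4* was not called (-1.80 to -0.92). Of the T cell receptor genes, 2 of 18 genes of the TCR complex and proximal signalling were above 0, *Cd8b1* (1.23 ± 0.07) and *Trat1* (1.93 ± 0.21), against 13.7% of all genes. The list's medians were -0.38 in WT and 0.17 in KI. None of the 8 GIMAP GTPase genes was called in either direction, with medians of 0.08 in WT and 0.70 in KI. Among 15 checkpoint and costimulatory receptors 2 were below 0, *Tnfrsf9* (4-1BB, -3.44 ± 0.10) and *Cd69*, and none above 0, against 11.8% and 13.7% of all genes. *Ctla4* had responses of -3.48 ± 0.15 in WT and -3.78 ± 0.15 in KI and was kept.

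Within the same limits of at least 5 RPKM and more than 3 reads, *Itgae* was 1 of the 5 weakened repressed genes with the largest interaction. The other 4 were *Csf1r*, *C1qc*, *C1qb* and *March1*, of which the first 3 are defining genes of macrophages. *Csf1r*, the receptor for macrophage colony-stimulating factor, was at 2.42, 2.46 and 3.11 RPKM in WT at 0 h, 0, 0.00884 and 0.0192 in WT at 48 h, 12.3, 10.9 and 9.22 in KI at 0 h and 1.52, 0.918 and 1.31 in KI at 48 h. KI libraries were above WT libraries at both times. Its interaction of 5.03 ± 0.85 (adjusted p = 7.02e-07) rested on at most 4 reads in a WT library at 48 h, so the level in WT at 48 h is uncertain, and by limma on log2(RPKM + 1) the interaction was -0.54. *C1qc* and *C1qb*, of complement, had interactions of 4.81 ± 0.58 and 3.41 ± 0.58, with at most 4 and 12 reads in a WT library at 48 h. *March1*, a ubiquitin ligase of antigen-presenting cells, was at 0.0618, 0.0624 and 0.0888 RPKM in WT and 1.62, 1.75 and 1.78 in KI at 48 h (3.21 ± 0.22). By limma the values of *C1qb* and *March1* were 0.56 and 0.27 and were not called. *Cd5l*, a macrophage-secreted protein and the reversed repressed gene with the largest interaction within these limits, was at 0.523, 0.497 and 0.814 RPKM in WT at 0 h, 0.0313, 0.0168 and 0.0364 in WT at 48 h, 3.18, 3.72 and 3.25 in KI at 0 h and 9.38, 5.35 and 9.54 in KI at 48 h, with at most 4 reads in a WT library at 48 h. Of the whole macrophage list 18 of 19 fell in WT and 14 in KI, while *Cd5l* was among those that rose in KI and the KI responses of *C1qb* and *C1qc* were not called. The interaction was called above 0 for 18 of the 19 and below 0 for *Cd163*, which lost its call without the first WT or the second KI library at 48 h (-1.36 to -0.99 over the settings that ended it). For B cell markers 13 of 15 were above 0, for dendritic cells 7 of 9, for erythroid cells and platelets 4 of 10, for NK cells 4 of 10 with 1 below, for CD4 and regulatory T cells 3 of 7, for neutrophils 0 of 8, for CD8 T cells 1 of 7 and for memory-phenotype cells 2 of 12 with 1 below. Of the erythroid genes called, *Hbb-bs* lost its call in 12 alternatives, 7 of them with 1 library left out (0.97 to 1.59). *Cd79a*, part of the B cell receptor, was at 19.99, 18.4 and 22.9 RPKM in WT and 84.8, 83.0 and 80.9 in KI at 0 h and 3.18, 2.54 and 2.83 and 45.1, 44.1 and 45.0 at 48 h. The part that such cells had in the weakened repressed class was not tested.

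*Fosb* and *Fos*, immediate early genes, and *Il1b* were the kept repressed genes with the largest WT response within the same limits of RPKM and reads. *Fosb* fell from 111.5, 102 and 108.9 to 0.123, 0.136 and 0.162 RPKM in WT and from 169, 174 and 162 to 0.110, 0.235 and 0.216 in KI, and *Fos* from 206, 204 and 205 to 0.625, 0.646 and 0.842 and from 252, 275 and 242 to 0.931, 0.867 and 1.04. Their interactions were -0.20 ± 0.25 (95% interval -0.73 to 0.33) and 0.12 ± 0.14 (-0.17 to 0.41). *Il1b*, which encodes IL-1β and is chiefly a myeloid gene, was 1.56 (log2) higher in KI at 0 h and had responses of -5.98 ± 0.36 in WT and -5.91 ± 0.24 in KI, with an interaction of -1.18 by limma on log2(RPKM + 1). Repression was strengthened for *Bhlhe40*, a repressor of the circadian family, at 46.8, 44.8 and 49.4 RPKM in WT at 0 h, 25.2, 24.8 and 24.04 in WT at 48 h, 81.9, 96.9 and 79.5 in KI at 0 h and 12.7, 11.9 and 10.2 in KI at 48 h. KI was above WT in all libraries at 0 h and below WT in all at 48 h, an interaction of -1.95 ± 0.10 (adjusted p = 2.55e-09). *Nr4a3*, an orphan nuclear receptor induced by the T cell receptor, had responses of -1.81 ± 0.14 in WT and -3.74 ± 0.15 in KI.

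Other genes had a called interaction without a called WT response, 342 of them below 0 and 473 above 0. Of the 342, 150 fell in KI, and of the 473, 31.1% rose in KI, against 13.6% and 6.38% of all genes. Choosing genes by a called interaction without a called WT response by itself favours a KI call in that direction. *Irf4*, a factor that scales with antigen receptor signals, was at 9.37, 8.27 and 8.98 RPKM in WT at 0 h, 17.8, 15.6 and 15.4 in WT at 48 h, 26.3, 26.5 and 27.4 in KI at 0 h and 6.13, 6.13 and 5.997 in KI at 48 h. In KI it fell, from above all WT libraries of 0 h to below all of 0 h and 48 h, an interaction of -3.00 ± 0.10 (adjusted p = 9.56e-11). Within the same limits of RPKM and reads, the chemokine gene *Cxcl10* had the next largest value below 0 (0.77 ± 0.17 in WT and -1.66 ± 0.17 in KI). *Art4*, a mono-ADP-ribosyltransferase, was at 1.4996, 1.56 and 1.49 RPKM in WT and 7.72, 7.71 and 7.31 in KI at 48 h (2.59 ± 0.12), and *Gm11346*, an uncharacterised transcript, at 6.94, 6.82 and 6.49 and 27.8, 21.8 and 27.5 (2.44 ± 0.17).

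The Stat5a line gave the same comparison for the other STAT5 protein, with its own WT and KI libraries. There the interaction was above 0 for 584 of 14760 genes (3.96%) and below 0 for 532 (3.6%). These calls and the Stat5a medians came from 1 fit of the 24 libraries of both lines at 0 and 48 h. The calls and medians of the Stat5b line came from the fit of its 12 libraries. Counts of the lines are therefore from unlike fits. Genes weakened in the Stat5b line had smaller interactions in the Stat5a line, with medians of -1.54 and -0.81 for the 1280 induced genes and of 1.72 and 0.89 for the 1453 repressed genes, of which 345 (27.0%) and 381 (26.2%) were called in the same direction in the Stat5a line and 0 in the opposite one. The genes were chosen in the Stat5b line, which by itself favours a larger value there. The difference of the interactions between lines was called below 0 for 281 genes (1.9%) and above 0 for 90 (0.61%). With all 48 libraries in 1 fit these counts were 11 and 2, and 226 and 42 when the third KI library of the Stat5a line at 4 h was left out of that fit. That library held 1028515 reads on the longest transcripts, 5.68% of its mapped reads, against 68.7 to 84.4% in the 12 libraries of the 4 groups. The count above 0 was 57 without the first WT library of the Stat5a line at 48 h, 57 without the first KI library of the Stat5b line at 48 h and 53 without replicate 3 of that group. Of the cell cycle lists 33 of 54 G2/M genes, 22 of 43 S phase genes, 15 of 35 genes of replication origins and forks, 8 of 17 cyclins and CDKs and 6 of 10 E2F and DP factors were called below 0. With all 48 libraries in 1 fit 1 S phase gene and none of the other 4 lists was called, and without that 1 library 27, 20, 16, 8 and 6 were. *Ccnb1* had an interaction of -3.74 in the Stat5b line and -1.62 in the Stat5a line (difference -2.12 ± 0.46, adjusted p = 0.00613). For *Gzmb* the values were -4.44 and -1.91 (difference -2.52 ± 0.55, adjusted p = 0.00653). Both lost the call with all 48 libraries (adjusted p = 0.108 and 0.143). No gene of ribosome biogenesis, the aminoacyl-tRNA synthetases, the chaperones or the proteasome was called, against 1.9% of all genes below 0, and the difference was below 0 without a call for 25 of 25, 20 of 20, 20 of 21 and 31 of 31 of them. The median difference was -0.52 for the 2250 induced genes and 0.03 for all genes tested, so values below 0 were not particular to these lists. For *Cish* and *Socs2* the difference was -0.84 ± 0.46 and -0.37 ± 0.40 and was not called.

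At earlier times in the Stat5b line the interaction was called for fewer genes, 45 above 0 (0.304%) and 0.777% of genes below 0 at 4 h and 735 above 0 (4.97%) and 1145 below 0 (7.74%) at 24 h, with the same 0 h libraries in all 3. The count above 0 at 4 h was 15 when all libraries but the third KI library of the Stat5a line at 4 h shared 1 fit. For the weakened induced genes the median interaction was -0.14 at 4 h, -1.22 at 24 h and -1.58 at 48 h in 1 fit, and for the weakened repressed genes 0.26, 0.91 and 1.68. *Cish* was already at -1.502 at 4 h and -1.91 at 24 h, *Cdk6* at -2.22 and -2.33 and *Myc* at -1.92 and -1.90, whereas *Ccnb1* was at -0.03 and -2.81 and *Csf1r* at -0.00 and 2.36. *Igtp* and *Irgm2*, kept at 48 h, were at -2.18 and -1.45 at 24 h, and the median of the 24 interferon-stimulated genes was 0.35 at 4 h, -0.92 at 24 h and -0.22 at 48 h. The resting-cell genes *Klf2* and *S1pr1* were at 0.04 and 0.00 at 4 h and at 0.94 and 1.06 at 24 h.

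**Figure D5:**
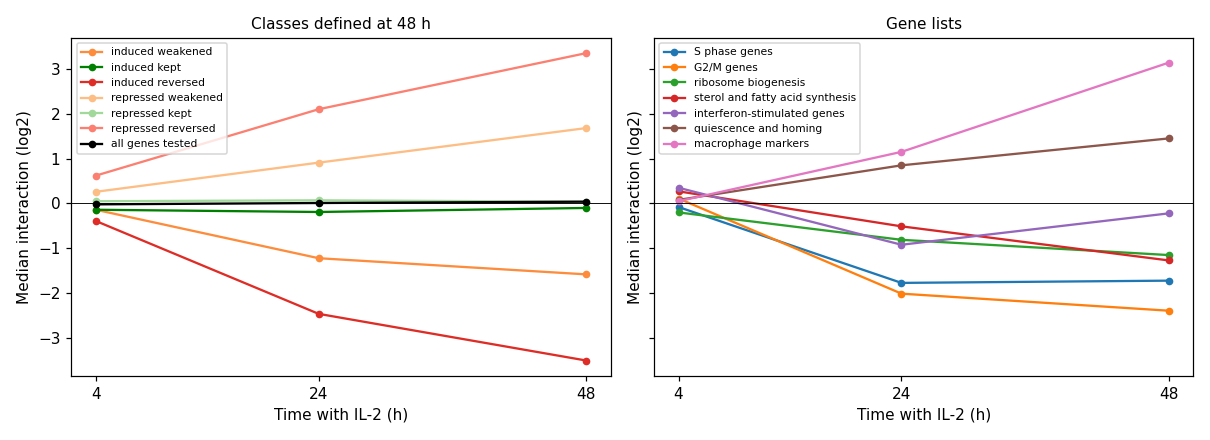
Median genotype by IL-2 interaction (log2) at 4, 24 and 48 h of the weakened, kept and reversed classes (left) and of 7 gene lists (right), from 1 fit of the 24 Stat5b line libraries. Weakened and reversed classes, which were defined at 48 h, move away from 0 between 4 h and 48 h, and the interferon-stimulated genes are lowest at 24 h.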

How the data were processed

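CD8+ T cells were profiled by RNA-seq, and per the labels and the study's methods the authors aligned reads to mm10 with TopHat2 2.0.11 and Bowtie2 2.2.6, together with SAMtools 0.1.8, bedtools 2.25.0 and edgeR. The deposited files give raw read counts per RefSeq transcript, and beside them RPKM values that the authors scaled to length and mapped reads. Here the longest transcript of each of 23992 symbols was used. Counts were tested with edgeR 4.0.16 (R 4.3.3), with TMM scaling, filterByExpr at a minimum count of 10, 1 mean per group and the quasi-likelihood test. P-values were adjusted by the Benjamini-Hochberg method over all 14366 genes, and ± is the standard error of a log2 value unless SD is named. RPKM values were used for display and, with limma 3.58.1 on log2(RPKM + 1), as an alternative, as was DESeq2 1.42.0. The genes, gene lists and tests were chosen with earlier results of these data known. Named genes had to reach a mean of 5 RPKM in a group and more than 3 reads in a library of each group and were then ranked within their class by the size of the interaction (kept genes by the WT response), and list members were added as those called, leading or best known. Some list members are not reported here by name. The interaction step was also run on simulated counts without an IL-2 response, except in a small set of genes given an interaction. That setting is simpler than these data, where many genes responded, so it gives no measure of error rates here. Depth was 34914679 to 52148513 reads per library, so that 3 reads correspond to 0.0575 to 0.0859 CPM. The difference between lines and the interaction of the Stat5a line were fitted on the 24 libraries of both lines at 0 and 48 h. The earlier times were fitted on the 24 libraries of the Stat5b line. Promoters and genome sequence came from RefSeq (GRCm38.p6).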

Additional observations from a re-analysis of the deposited data

Results flagged for a closer look

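The genotype by IL-2 interaction at 48 h differed between the Stat5b and Stat5a lines for 23 of the genes named, by the test of the difference itself (edgeR, adjusted p of at most 0.05 and at least 2-fold). Over all genes the difference was called below 0 for 1.9% and above 0 for 0.61%. Of the genes named, 104 had a called interaction in the Stat5b line. Many were named for the size of that interaction, which by itself favours a larger value in the Stat5b line. The count of 23 is therefore no estimate of how often the lines differ. All values are the interaction of the Stat5b line minus that of the Stat5a line on the log2 scale. Among genes of the cell cycle it was -2.12 for *Ccnb1*, -1.56 for *E2f1*, -2.02 for *Mcm10*, -1.77 for *Mki67*, -3.09 for *Cdkn2a*, -1.03 for *Cdkn2c*, -3.89 for *Mycn* and 1.01 for *Mxd4*. Among effector and signalling genes it was -2.52 for *Gzmb*, -1.28 for *Osm*, -2.03 for *Tnfrsf9*, -2.04 for *Zbtb32*, -1.31 for *Sema7a* and 1.54 for *Il7r*. Among metabolic and other genes it was -1.30 for *Hk2*, -1.40 for *Scd2*, -1.29 for *Shmt1*, -4.69 for *Hemgn*, -3.60 for *D630039A03Rik*, 1.15 for *Klf2*, 1.95 for *Foxp3*, a marker of regulatory T cells, 1.60 for *Bbc3* and 1.17 for *Art4*. In each of these the interaction of the Stat5b line was called in the direction of the difference. All 23 kept their sign in each alternative fit of the difference that was run, but with all 48 libraries in 1 fit 2 of them were called, *Hemgn* and *Tnfrsf9*, and 18 were called when the third KI library of the Stat5a line at 4 h was left out of that fit. Without 1 library of the comparison itself 20 to 23 were called.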

How the results depend on the processing

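Across 14 alternatives, 203 of 246 counts stayed within 1.5 times the value reported, and the cause of the other 43 was not tested beyond the narrower set of genes or samples that some alternatives use. Of the genes named, 84.1% kept their side of the threshold under every alternative that used all libraries of the comparison. With any 1 library left out 93.1% kept it. Kept here also means the same direction where the gene was called in either fit. A change of sign in a gene called in neither fit was not counted. The 3 changes of sign that were counted arose by limma on log2(RPKM + 1), in *Csf1r* (-0.54), *Drc1* (-0.29) and *Il1b* (-1.18). With 1 library left out the call was lost for *Calr*, *Cd163*, *Hbb-bs* and *Il1rl1* and gained for *Bst2*, *Cd3e*, *S100a9*, *Socs1*, *Socs3* and *Tyrobp*. In 1 or both fits of the wider set of libraries it was also lost for *Ccr4*, *Gzmk*, *Ifi44* and *Oas2*. By limma it was lost for *Ccr4* and *Oas2* as well, and for *Bcl6* (0.83), *Bmf* (0.90), *C1qb*, *Ccnd1* (0.70), *March1*, *Mxi1* and *Mycl*. By limma 811 genes were lower in WT and 565 higher and 569 lower in KI, 540 interactions were above 0, 252 repressed genes were weakened, 1 reversed, 14 strengthened and 274 unresolved, 3 induced genes were reversed and 2 strengthened, and KI was higher for 267 and lower for 28 genes at 0 h and higher for 583 and lower for 836 at 48 h. With all 48 libraries 1170 interactions were above 0, 826 repressed genes were weakened, 13 reversed and about 1.5e+02 kept, KI was higher at 0 h for 646, and the lines differed below 0 for 11 and above 0 for 2. With all libraries but the third KI library of the Stat5a line at 4 h in 1 fit, which also differs from the fits reported in its other libraries, 15 repressed genes were reversed, the lines differed above 0 for 42 and the 4 h interaction was above 0 for 15. Among genes with at least 5 RPKM in a group, an alternative chosen after seeing the data, 1125 interactions were below 0 and 680 above, 467 repressed genes were weakened, 4 reversed, 12 strengthened, 178 kept and 302 unresolved, and 6 induced genes were reversed and 8 strengthened. Without a fold threshold 4381 were below 0 and 4752 above, 44 induced and 88 repressed genes were strengthened and 199 induced genes unresolved. Chosen by the WT libraries of the Stat5a line, 27 induced and 12 repressed genes were reversed and 24 and 53 strengthened. With library totals in place of TMM 954 genes were lower in KI at 48 h and 60.5% of called interactions were above 0, against 53.6% in the fit reported. Leaving out 1 library gave 1792 to 1998 interactions above 0 and 1606 to 1815 below, 1220 to 1343 weakened, 36 to 50 reversed, 10 to 14 strengthened, 155 to 178 kept and 729 to 839 unresolved induced genes, 1343 to 1453, 21 to 31, 29 to 49, 256 to 292 and 1358 to 1536 repressed genes, 228 to 352 line differences below 0 and 53 to about 1.2e+02 above. Replicate numbers are shared by the groups, but same-numbered libraries correlated by -0.124 to 0.188, over 0.1 in 2 of 18 pairs, and with the replicate number as a block 1947 interactions were above 0 and 1695 below.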
